A study of Homo sapiens with 16 samples.

Results

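The 10 genes SMC2, SMC4, NCAPD2, NCAPG, NCAPH, SMC1A, SMC3, RAD21, TOP2A and ESPL1 encode the SMC and non-SMC subunits of condensin I, the core of cohesin, topoisomerase II alpha and separase. They were taken by symbol from the 58787 Ensembl gene identifiers of a raw count table, each symbol matched 1 identifier, and all 10 had enough counts to be tested. IMR32 is a human neuroblastoma cell line with amplified MYCN, labelled as a neuroblast line of brain origin, and total RNA was extracted. The table holds 16 libraries in 4 groups of 4 replicates. Cells of 3 groups received 1 of 3 small interfering RNAs against TPX2 (si45, si46 or si47), and cells of the control group with the siRNA siNTC. All column names carry a time of 48 h. Every group is the same cell line, so no result extends beyond IMR32, and while the series text calls the replicates biological, it does not say whether they were separate cultures. The p-values then measure the spread between these samples, which may be technical.

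Chromosomes are shaped by ring-like ATPase complexes built on pairs of SMC proteins. Condensin (SMC2 with SMC4) compacts mitotic chromosomes into loops, and cohesin (SMC1A with SMC3, closed by RAD21) holds sister chromatids together until the protease separase, the product of ESPL1, cuts RAD21 at anaphase. Topoisomerase II alpha, the product of TOP2A, untangles the sister DNA molecules and is a marker of dividing cells. Many genes of this machinery are transcribed in the S, G2 and M phases, and promoters of the G2 and M phase group often carry a short element, the cell cycle genes homology region (CHR), that is bound by the DREAM and B-MYB complexes.

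Libraries were made with a kit that reads the 3' end of polyadenylated transcripts, so a level in CPM (counts scaled to a fixed library size after TMM normalization) stands for transcripts whatever their length. Total counts ran from 5318159 to 7864343 per library, and TMM factors from 0.966 to 1.028. TPX2, the knockdown target, stood at 296 to 358 CPM in the controls, 79.1 to 121 with si45, 62.0 to 93.5 with si46 and 68.4 to 76.1 with si47 (two-sided exact permutation p = 0.0286 for each siRNA, the smallest that 4 against 4 libraries allow). All 9 neuroblast markers examined were expressed, with a summed level of 4814 to 5591 CPM per library, and the markers of leukocytes and epithelial cells summed to at most 2.56 CPM. The 6 fibroblast markers summed to 26.9 to 81.2 CPM, and the 4 Schwann cell markers to 4.86 to 11.3 CPM, with SOX10 at 0.

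Promoters were examined for the CHR because most of the genes described below were lower together. RefSeq windows on GRCh38.p14 (250 bases before to 50 after a start site) were examined for 9 of the 10 genes. These were 12 windows in all, since SMC2, SMC4 and SMC1A each had 2. RAD21 was left out of the search, so whether its promoter holds a CHR was not tested. A CHR (TTTGAA or TTCGAA, either strand) was found in 7 windows, 1 in each of 7 genes, against 16.4% of all 35116 windows in the table and 11.8% of the 14924 windows of genes tested here. The stretches of 30 bases around these matches are shown, of which the 7 genes share only the marked match, on either strand. They are written 5′ to 3′ on the strand of the gene, and the capitals mark the CHR.
NCAPG (chr4:17810932-17810961, plus strand): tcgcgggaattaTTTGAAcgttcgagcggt
ESPL1 (chr12:53268256-53268285, plus strand): cagccgcggataTTTGAAaggagggtctgg
NCAPD2 (chr12:6493945-6493974, plus strand): cagccgttgagaTTTGAActcggtatttgt
TOP2A, distal match (chr17:40418073-40418102, minus strand): cgagtggtgcctTTTGAAgcctctctagtc
TOP2A, proximal match (chr17:40418030-40418059, minus strand): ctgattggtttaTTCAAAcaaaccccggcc
SMC2 (chr9:104094294-104094323, plus strand): ctcgcgccgaaaTTCAAAggaataaatagt
SMC4 (chr3:160399563-160399592, plus strand): gccgcactttttTTCAAAttagtggatccc
SMC3 (chr10:110567532-110567561, plus strand): cagaattctagaTTCAAAagaaatccacca
The CHR began 35 bases before the start site in NCAPG, 31 in ESPL1 and 3 in SMC2, where it spans the start site, and 75 to 194 bases before it in the other genes. A CCAAT box (CCAAT, either strand), which often stands upstream of a CHR, was found in 4 of the 9 genes (NCAPD2, NCAPH, TOP2A and ESPL1), in 4 of the 12 windows, and in 34.6% of all windows and 35.1% of those of tested genes, with 4 matches each in TOP2A and NCAPD2. An E2F-like motif (TTCCCGC or TTGGCGC, either strand) was found in NCAPG, at 2 places, and SMC1A, in 2 of the 12 windows, and in 9.23% of all windows and 13.6% of those of tested genes. No match in these windows overlapped another. A match is a run of letters and not a measured binding site. NCAPD2 and ESPL1 held a CHR and were not called lower in the mean of the 3 siRNAs described below. NCAPH and SMC1A held none and were called lower. A link between the match and the fall was not tested.

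**Figure D1:**
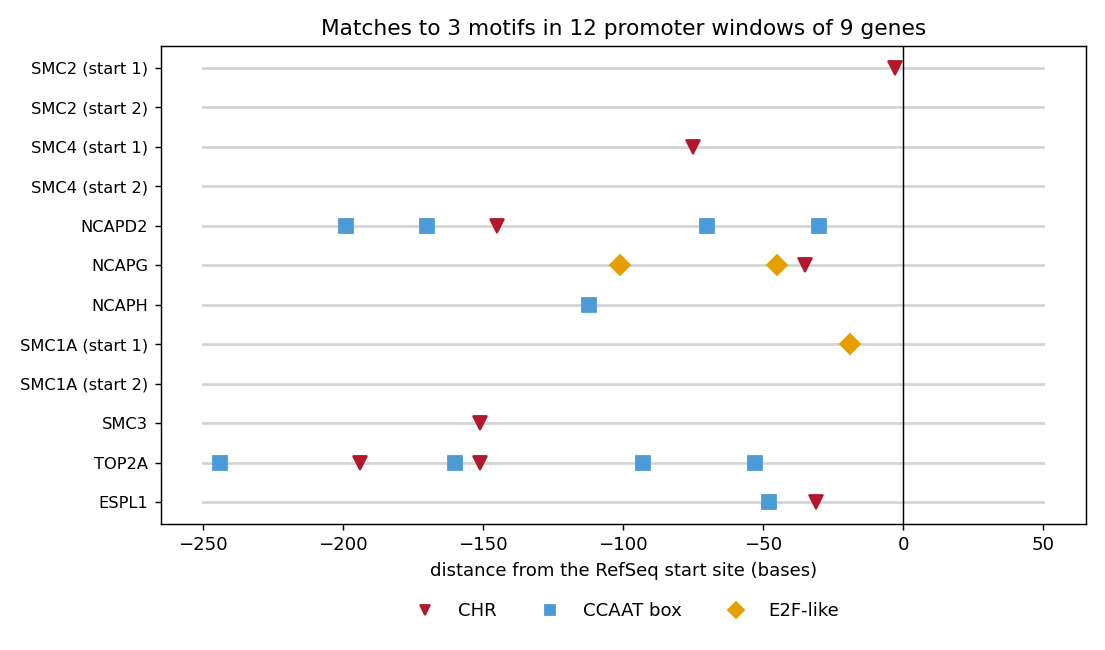
Each grey line is a RefSeq promoter window of 1 gene, drawn by distance in bases from the start site (vertical line), with symbols at the first base of each match to a CHR, a CCAAT box or an E2F-like motif. The 8 CHR matches, in 7 of the 9 genes, begin before the start site, which the SMC2 match spans, with none in NCAPH or SMC1A.

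The question put to the counts was whether transcripts of the chromosome structure machinery changed when TPX2, a microtubule-binding protein of the mitotic spindle, was depleted. All 10 genes had a negative log2 fold change under each siRNA. In the mean of the 3 siRNAs against siNTC, 7 of the 10 fell (edgeR's quasi-likelihood test, Benjamini-Hochberg adjusted p under 0.05 over 14193 genes), where 3.53% of all genes tested were called lower, 3.61% higher and 7.14% in either direction. None of the 10 rose in this or any of the single siRNA contrasts. TOP2A fell most, to 64.4% of the control level, followed by the condensin I subunits NCAPH (74.0%) and NCAPG (76.1%). NCAPD2, RAD21 and ESPL1 did not pass. In bulk libraries, fewer dividing cells and less RNA of these genes per cell cannot be told apart. The median log2 fold change of the 10 genes was -0.29 in the mean contrast and -0.25, -0.28 and -0.38 under si45, si46 and si47, where the median of all genes tested was 0.

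By siRNA, 7 genes fell under si47, where 4.83% of all genes were called lower, 4.91% higher and 9.74% in all. Under si46 3 fell (NCAPG, NCAPH and SMC3), where 1.25% were called lower, 2.14% higher and 3.4% in all. Under si45 0 fell, where 0.324% were called lower, 1.01% higher and 1.34% in all. So 0 of the 10 fell under all 3 siRNAs, as 0.233% of all genes did. All 4 libraries of an siRNA lay below all 4 controls for 2 of the 10 genes with si45 (2.96% of all genes), for 6 with si46 (4.67%) and for 6 with si47 (6.99%). Under si45, 7 of the 10 had an unadjusted p under 0.05 in edgeR, as 1617 of all 14193 genes did. DESeq2 called 1, NCAPG, and limma-voom called 0. Without si45 replicate 3 the si45 count was 4 (NCAPG, NCAPH, SMC1A and TOP2A), and 406 genes were called in all against 190. Without si45 replicate 1 the count was 0, and 97 genes were called in all. The edgeR adjusted p of the same 4 genes was then 0.418 to 0.646. The 3 comparisons share the 4 siNTC libraries, so their values are given side by side and not as independent evidence.

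**Figure D2:**
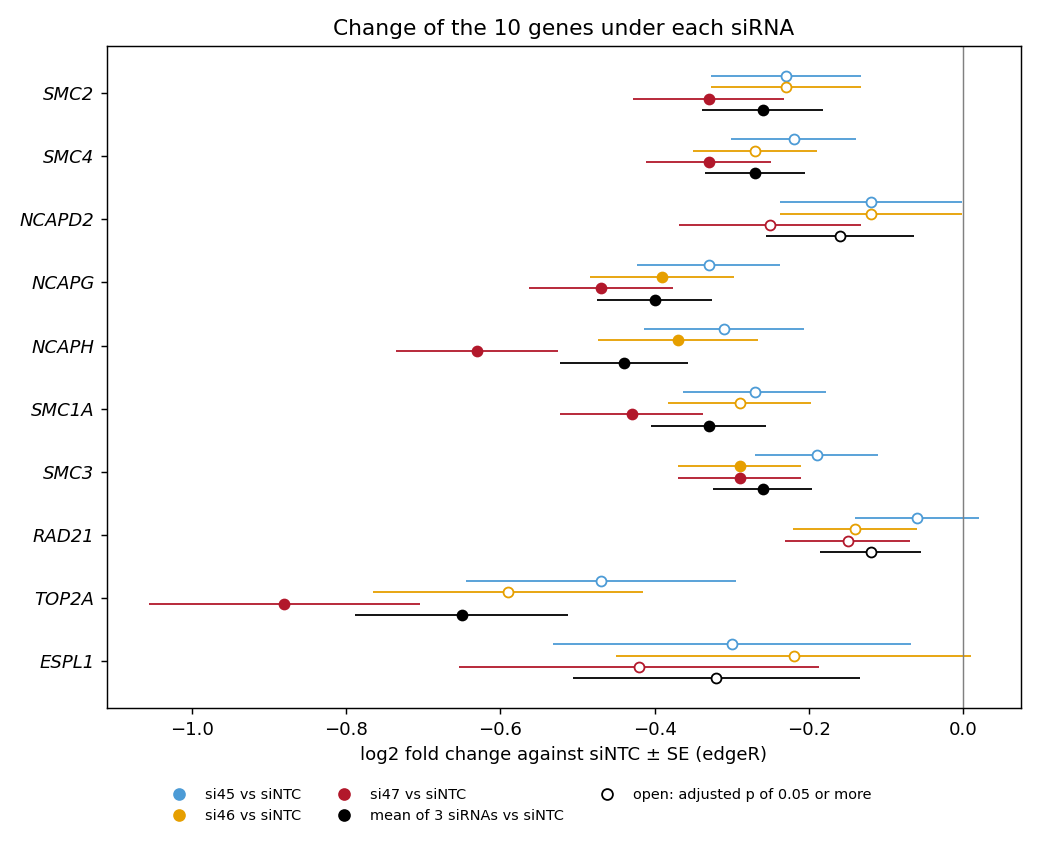
Points are log2 fold changes against siNTC from edgeR with their standard errors, for si45, si46, si47 and the mean of the 3, and filled points have an adjusted p under 0.05. All 10 genes lie below 0, from -0.06 for RAD21 under si45 to -0.88 for TOP2A under si47.

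TOP2A (ENSG00000131747, chromosome 17, 40388516 to 40417950 on the minus strand in GENCODE v29 of GRCh38) was the most abundant of the 10 transcripts, with 14558 to 18951 counts in the control libraries. Replicates 1 to 4 stood at 3001, 2956, 2746 and 3215 CPM in the controls and at 1773, 1689.7, 2953 and 2188 CPM with si45. They stood at 2113, 1549, 2315 and 1954 CPM with si46 and at 1330.3, 1420.0, 1972 and 1752 CPM with si47. Every si46 and si47 library was below all controls, and 1 si45 library, replicate 3, was within the control range.

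The fall of TOP2A was the largest of the 10 genes on the log2 scale. TOP2A changed by -0.65 on that scale in the mean contrast (SE 0.138, edgeR adjusted p = 0.0108) and -0.88 under si47 (SE 0.176, edgeR adjusted p = 0.00553). The values of -0.47 (SE 0.175) under si45 and -0.59 (SE 0.175) under si46 did not pass (edgeR adjusted p = 0.296 and 0.0946). Without si45 replicate 3 the si45 value was -0.66 (edgeR adjusted p = 0.0115), and the si46 value of -0.59 then passed too, at the same adjusted p of 0.0115. Without si45 replicate 1 the si45 adjusted p in edgeR was 0.646. With only the si46 and siNTC libraries in the fit, the si46 adjusted p was 1.49e-04. In the edgeR fit of all groups without si46 replicate 2, it was 0.219. Replicate 3 had the highest TOP2A of each siRNA group and the lowest of siNTC, and the same was true of TPX2, at 121, 93.5 and 76.1 CPM under si45, si46 and si47 and 296 CPM in the controls. The part of residual TPX2 in the TOP2A level was not tested.

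TOP2B, the gene of the second topoisomerase II, which is also made in cells that do not divide, did not pass in the mean contrast (-0.03, SE 0.0676, edgeR adjusted p = 0.834). The TOP2A to TOP2B ratio of CPM ran from 11.30 to 14.1 in the controls, from 7.48 to 14.4 with si45, from 6.77 to 11.26 with si46 and from 5.74 to 8.40 with si47. All si46 and si47 libraries were below all controls in this ratio, si46 replicate 3 by little, and the si45 range reached above them.

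**Figure D3:**
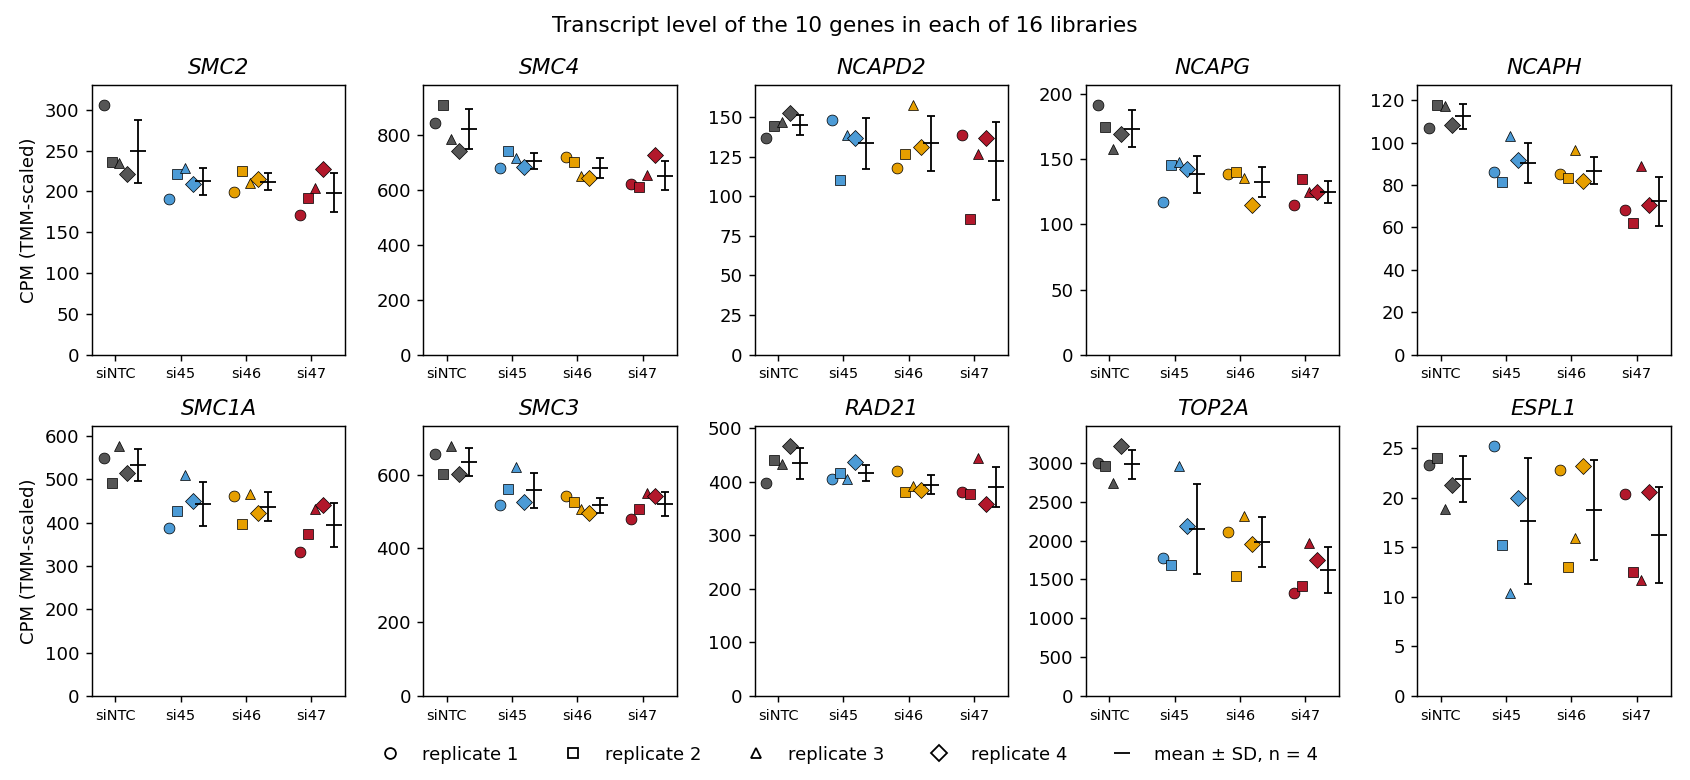
Each panel gives the TMM-scaled CPM of 1 gene (y axis, from 0) in the 16 libraries by group, with a symbol for each replicate number and the mean ± SD of 4 libraries beside them. NCAPG and NCAPH show no overlap between the 12 knockdown and 4 control libraries, and TOP2A overlaps through si45 replicate 3 at 2953 CPM.

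Of the condensin I subunits outside the SMC pair, NCAPG and NCAPH fell and NCAPD2 did not pass, and the difference between them was not tested. NCAPG (ENSG00000109805, chromosome 4, 17810902 to 17844862) encodes a HEAT-repeat subunit. Its replicates 1 to 4 stood at 192, 175, 158 and 169 CPM in the controls and at 117, 146, 148 and 142 CPM with si45. They stood at 139, 140.5, 136 and 115 CPM with si46 and at 115, 135, 125 and 125 CPM with si47. All 12 knockdown libraries lay below all 4 controls, as for 1.03% of all genes tested. NCAPG fell by 0.40 on the log2 scale in the mean contrast (SE 0.0745, edgeR adjusted p = 5.54e-04), by 0.39 under si46 (edgeR adjusted p = 0.0137) and by 0.47 under si47 (edgeR adjusted p = 7.43e-04). Under si45 the value was -0.33 (SE 0.0931, edgeR adjusted p = 0.0712), which passed without si45 replicate 3 (0.0360). Without si45 replicate 1 the si45 adjusted p in edgeR was 0.418. The si46 call was lost without si46 replicate 4 (0.0821) or siNTC replicate 1 (0.0703). NCAPG overlaps LCORL on the opposite strand, which held 5869 counts over all libraries against 13737 for NCAPG, and strand use in the counting is not given in the sources used here.

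NCAPH (ENSG00000121152, chromosome 2, 96335787 to 96373845), the kleisin that closes the condensin I ring, stood at 107, 118, 117 and 108 CPM in the controls and at 85.9, 81.2, 103 and 91.7 CPM with si45. It stood at 85.3, 83.4, 96.3 and 82.1 CPM with si46 and at 68.1, 61.8, 88.8 and 70.6 CPM with si47. Here too all 12 knockdown libraries were below all controls, and replicate 3 was the highest of each siRNA group. NCAPH fell by 0.44 in the mean contrast (SE 0.083, edgeR adjusted p = 5.54e-04), by 0.37 under si46 (edgeR adjusted p = 0.0366) and by 0.63 under si47 (edgeR adjusted p = 8.26e-05). The si45 value was -0.31 (SE 0.104, edgeR adjusted p = 0.156), and it passed without si45 replicate 3 (0.0462). Without si45 replicate 1 the si45 adjusted p in edgeR was 0.457. The si46 call did not hold without si46 replicate 1, 2 or 4 or without any 1 of the siNTC libraries (edgeR adjusted p = 0.0588 to 0.122).

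NCAPD2 (ENSG00000010292, chromosome 12, 6493356 to 6531955), the other HEAT-repeat subunit, ranged from 137 to 152 CPM in the controls, 110.3 to 148 with si45, 118 to 158 with si46 and 85.9 to 139 with si47. The groups overlapped under every siRNA, and 1 si46 library lay above all controls. Its log2 fold change of -0.16 in the mean contrast (SE 0.0956, edgeR adjusted p = 0.351) did not pass, nor did -0.25 under si47 (edgeR adjusted p = 0.204). The lowest NCAPD2 level, 85.9 CPM, was that of si47 replicate 2. NCAPD2 overlaps MRPL51 on the opposite strand, which held 27032 counts over all libraries against 12846 for NCAPD2, so reads near the overlap may be shared.

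Both SMC subunits of condensin fell. SMC4 (ENSG00000113810, chromosome 3, 160399274 to 160434962) was at 845, 909, 786 and 741 CPM in the controls and at 680.4, 742, 717 and 682 CPM with si45. It was at 720.4, 701, 651 and 645 CPM with si46 and at 620.2, 609, 653 and 726 CPM with si47. Of the 12 knockdown libraries 11 had less SMC4 than any control, the exception being si45 replicate 2. SMC4 changed by -0.27 (log2) in the mean contrast (SE 0.065, edgeR adjusted p = 0.00657; 0.0761 without siNTC replicate 2) and -0.33 under si47 (edgeR adjusted p = 0.00654). The si46 value of -0.27 lay next to the threshold (edgeR adjusted p = 0.0543), and it passed in DESeq2 (0.0161) and limma-voom (0.0466). Without siNTC replicate 2 the si46 adjusted p in edgeR was 0.212.

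SMC2 (ENSG00000136824, chromosome 9, 104094260 to 104141417) stood at 306, 236, 234 and 221 CPM in the controls and at 191, 221, 229 and 209 CPM with si45. It stood at 199, 225, 209.8 and 215 CPM with si46 and at 171, 191, 204 and 228 CPM with si47. The high control library, replicate 1, carried much of the difference. In the mean contrast SMC2 was at -0.26 (SE 0.0784, edgeR adjusted p = 0.0323) with all libraries and -0.15 (edgeR adjusted p = 0.337) without siNTC replicate 1. The call was also lost without siNTC replicate 2 or replicate 1 of si45, si46 or si47 (edgeR adjusted p = 0.0511 to 0.0628). The si47 value of -0.33 (edgeR adjusted p = 0.0258) did not pass without siNTC replicate 1 (0.185) or si47 replicates 1 or 2 (0.134 and 0.0740). The ratio of SMC2 to SMC4 CPM was 0.304 ± 0.0427 (SD, n = 4) in the controls, 0.301 ± 0.0163 with si45, 0.313 ± 0.0252 with si46 and 0.304 ± 0.0192 with si47, and the groups overlapped.

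Of the cohesin core, both SMC subunits fell and the kleisin did not pass. SMC1A (ENSG00000072501, chromosome X, 53374149 to 53422728 on the minus strand) was at 549, 493, 576 and 516 CPM in the controls and at 387, 427, 509 and 450.5 CPM with si45. It was at 462, 398, 466 and 422 CPM with si46 and at 333, 375, 431 and 442 CPM with si47. Of the 12 knockdown libraries 11 had less SMC1A than any control, the exception being si45 replicate 3. It fell by 0.33 in the mean contrast (SE 0.0743, edgeR adjusted p = 0.00393) and by 0.43 under si47 (SE 0.0929, edgeR adjusted p = 0.00189). The values of -0.27 and -0.29 under si45 and si46 did not pass (edgeR adjusted p = 0.194 and 0.0837), and the si45 value did without si45 replicate 3 (0.0398). Without si45 replicate 1 the si45 adjusted p in edgeR was 0.633. The si46 value passed with only the si46 and siNTC libraries (0.0310) and with no filter on low counts (0.0414). Without si46 replicate 2 the si46 adjusted p in edgeR was 0.261.

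SMC3 (ENSG00000108055, chromosome 10, 110567691 to 110604636) was at 656, 601, 677 and 603 CPM in the controls and at 519, 562, 621 and 527 CPM with si45. It was at 542, 525, 506 and 497 CPM with si46 and at 481, 506, 551 and 542 CPM with si47. All si46 and si47 libraries were below all controls, and si45 replicate 3 was not. SMC3 fell by 0.26 in the mean contrast (SE 0.0639, edgeR adjusted p = 0.0103) and by 0.29 under both si46 (edgeR adjusted p = 0.0303) and si47 (edgeR adjusted p = 0.0167). Under si45 the value was -0.19 (edgeR adjusted p = 0.332). The mean call was lost without siNTC replicate 1 (0.0507) or 3 (0.0703). The si46 call was lost without any 1 of 5 libraries, siNTC replicates 1 and 3 and si46 replicates 2, 3 and 4 (0.0736 to 0.113), and the si47 call without siNTC replicates 1 and 3 or si47 replicates 1 and 2 (0.0502 to 0.0827).

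The ratio of SMC1A to SMC3 CPM was 0.841 ± 0.0161 (SD, n = 4) in the controls, and averaged 0.795 ± 0.0508 with si45, 0.845 ± 0.0672 with si46 and 0.757 ± 0.0531 with si47. All 4 si47 libraries (0.692 to 0.815) lay below the control range (0.819 to 0.855), and the si45 and si46 libraries overlapped it. This difference was not tested.

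RAD21 (ENSG00000164754), the substrate of separase, ranged from 397 to 467 CPM in the controls, 405 to 438 with si45, 380.1 to 419.6 with si46 and 359 to 445 with si47. The ranges overlapped under every siRNA. Its log2 fold changes were -0.06, -0.14 and -0.15 under si45, si46 and si47 and -0.12 in the mean contrast (SE 0.0652, edgeR adjusted p = 0.311), and none passed in edgeR, in DESeq2, in limma-voom or under any other alternative tried. RAD21 overlaps UTP23 on the opposite strand (4397 counts over all libraries against 39445 for RAD21).

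ESPL1 (ENSG00000135476, chromosome 12, 53268299 to 53293643), the gene of separase, was the least abundant of the 10, with 60 to 181 counts per library. It ranged from 18.9 to 24.0 CPM in the controls, 10.4 to 25.2 with si45 and 11.7 to 20.6 with si47, and averaged 18.8 ± 5.07 (SD, n = 4) with si46. The siRNA groups were spread more widely than the controls and overlapped them. The mean log2 fold change of -0.32, close to the -0.33 of SMC1A, had a standard error of 0.186 and did not pass (edgeR adjusted p = 0.355).

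Summed over its 5 subunits, condensin I stood at 1500.4 ± 98.7 CPM (SD, n = 4) in the controls, 1279.9 ± 49.2 with si45, 1244 ± 38.9 with si46 and 1169.7 ± 90.9 with si47. SMC4 alone averaged 820 CPM in the controls, so this sum mostly follows SMC4 and is no measure of the assembled complex. The cohesin core of SMC1A, SMC3 and RAD21 summed to 1602 ± 63.8, 1417 ± 92.0, 1348 ± 57.9 and 1305 ± 101 CPM. Both sums were lower on average with each siRNA, with a condensin to cohesin ratio of 0.938 ± 0.0854 in the controls, 0.905 ± 0.0290 with si45, 0.923 ± 0.0395 with si46 and 0.897 ± 0.0561 with si47. The ranges of this ratio overlapped in all groups, and the difference between the complexes was not tested.

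The siRNAs were also compared with each other. Of the 10 genes, 0 passed between si46 and si45 (0.0282% of all genes were called), 0 between si47 and si45 (0.169%) and 0 between si47 and si46 (0.0493%), and DESeq2 and limma-voom also called 0 in each. At an unadjusted p under 0.05 in edgeR the numbers were 0, 2 and 1 of the 10, against 582, 1475 and 1034 of all 14193 genes. NCAPH came nearest, at -0.32 (SE 0.105, edgeR adjusted p = 0.206) with si47 against si45. Same-numbered si45 and si47 libraries deviated together from their group means, and with the replicate number as a block NCAPH passed at -0.32 (SE 0.0897, edgeR adjusted p = 0.0317). It also passed without si47 replicate 3, at -0.43 (SE 0.106, edgeR adjusted p = 0.0314). TOP2A differed by -0.41 between si47 and si45 (SE 0.175, edgeR adjusted p = 0.428), which did not pass, nor did it with the block (0.180).

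Beyond the shift between groups, some of the 10 genes varied together from library to library. After the group means were taken away, Pearson's r of log2 CPM over the 16 libraries was 0.80 for SMC1A with SMC3, 0.79 for SMC1A with TOP2A and 0.74 for NCAPH with TOP2A. Across the 45 pairs it ran from -0.57 (SMC3 with ESPL1) to 0.80, with a median of 0.13, and was positive in 30. The subunits of condensin I did not form one block, since NCAPD2 and NCAPG gave -0.47 and NCAPG and NCAPH 0.03. The values share the same 16 libraries and their scaling, and are given as a description.

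**Figure D4:**
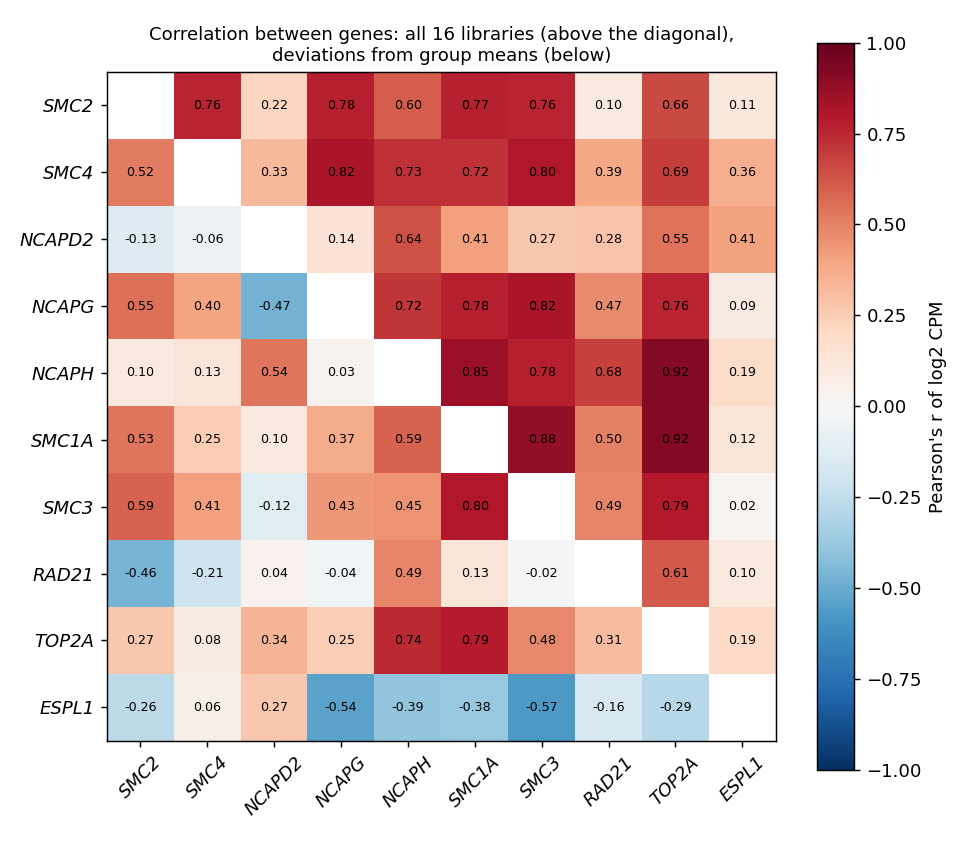
Pearson's r of log2 CPM between the 10 genes is shown for all 16 libraries above the diagonal and for deviations from the 4 group means below it, from -1 (blue) to 1 (red). Above the diagonal all 45 values are positive (0.02 to 0.92), and below it the pairs of ESPL1 with NCAPG (-0.54) and SMC3 (-0.57) are the most negative.

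Genes with the most similar pattern were named for 3 of the 10, as those with the highest r over the 16 libraries, group differences included, among 9678 genes with a mean count of at least 50. For TOP2A they were RAI14 (r = 0.968), ATOH8 (0.966), CCNF (0.954), DCAF7 (0.944) and TYMS (0.943). CCNF encodes a cyclin of the G2 phase, and TYMS thymidylate synthase, an enzyme of DNA precursor synthesis. For NCAPG they were FADS1 (0.938), SQLE (0.912), KIF15 (0.911), EZH2 (0.911) and EME1 (0.909), which include a mitotic kinesin (KIF15) and the catalytic subunit of the PRC2 histone methyltransferase (EZH2). For SMC3 they included TTF1 (0.948), RECQL4 (0.930), MCM8 (0.918) and CLSPN (0.907). With group means taken away these r values ran from 0.875 to 0.954 for TOP2A, 0.688 to 0.853 for NCAPG and 0.801 to 0.889 for SMC3.

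A further 36 genes of chromosome condensation, cohesion and topology were read from the same fit, of which 32 could be tested. In the mean contrast 6 of the 32 were called lower and 0 higher, where 3.53% of all genes tested were called lower and 3.61% higher. The median over the 32 was -0.13 (log2). In edgeR 16 had an unadjusted p under 0.05, in either direction, as 2901 of all 14193 genes did. Under si45, si46 and si47 the numbers called were 1, 2 and 7 lower and 0 higher. Of all genes tested, 0.324%, 1.25% and 4.83% were called lower there and 1.01%, 2.14% and 4.91% higher. Of condensin II, the nuclear form that acts from prophase, NCAPH2 fell by 0.42 (SE 0.112, edgeR adjusted p = 0.0198), while NCAPD3 was at -0.29 (edgeR adjusted p = 0.169) and NCAPG2 at -0.08 (0.721). STAG2, the cohesin subunit of the somatic ring beside STAG1, fell by 0.28 (SE 0.0675, edgeR adjusted p = 0.00715) and its 12 knockdown values all lay under the 4 control values.

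Among the regulators of cohesin, CTCF, the DNA-binding protein at which cohesin loops stop, fell by 0.31 (SE 0.0806, edgeR adjusted p = 0.0141). CDCA5, or sororin, which protects cohesin from release, fell by 0.31 (SE 0.0986, edgeR adjusted p = 0.0489). ESCO2, the acetyltransferase of SMC3 in S phase, fell under si47 (-0.53, edgeR adjusted p = 0.0248) and was at -0.31 in the mean contrast (0.129). The loader NIPBL (-0.09, 0.498) and the release factor WAPL (-0.17, 0.190) did not pass. PTTG1, or securin, the inhibitor of separase, was at -0.09 (0.643). TOP3A fell by 0.29 (SE 0.0828, edgeR adjusted p = 0.0278), and the proliferation marker MKI67, whose product coats mitotic chromosomes, fell by 0.50 (SE 0.0693, edgeR adjusted p = 7.80e-06). MKI67 passed under each siRNA and stood at 727 ± 42.3 CPM (SD, n = 4) in the controls, 559 ± 72.0 with si45, 509 ± 26.7 with si46 and 479.8 ± 44.9 with si47. None of the 8 genes of the SMC5/6 complex and SMCHD1 passed in edgeR in the mean contrast.

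**Figure D5:**
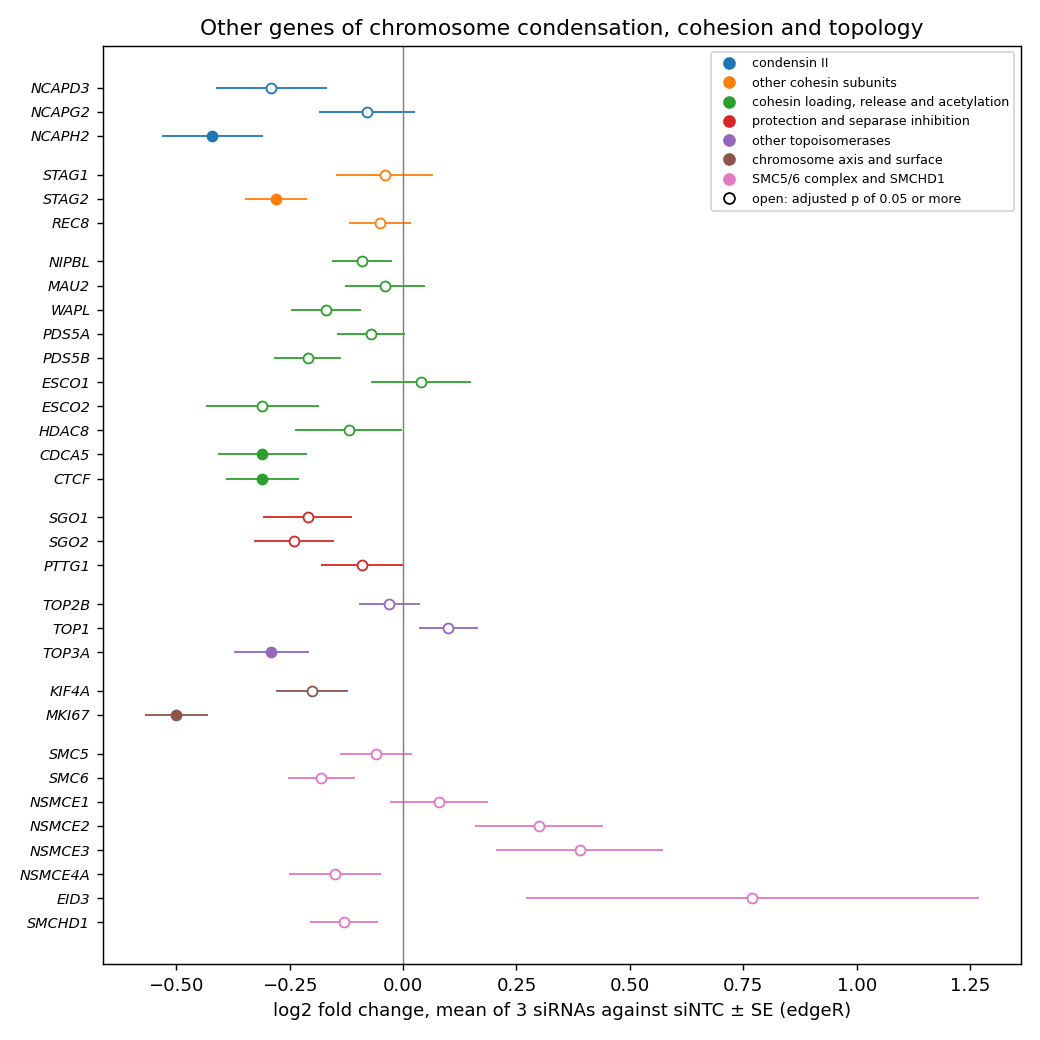
Points are log2 fold changes of 32 further genes in the mean of the 3 siRNAs against siNTC, with standard errors from edgeR, coloured by role, and filled points have an adjusted p under 0.05. The 6 filled points are NCAPH2, STAG2, CDCA5, CTCF, TOP3A and MKI67, all below 0.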

How the data were processed

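The deposited table holds raw read counts per Ensembl gene, whole numbers that were not normalized. Per the labels, libraries were made with Lexogen's QuantSeq kit and 15 PCR cycles and read single-end. Per the submitters' processing notes, FastQC 0.11.7, STAR 2.7.2b, edgeR 3.36.0, limma 3.50.3 and build GRCh38 were used, with no role given. The counter, its annotation, its use of strand and the treatment of duplicates are not given in the sources used here.

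Groups came from the titles, and columns were matched by siRNA and replicate number. Symbols matched 58434 identifiers; the table used holds no mitochondrial genes. The 24 pairs of replicates differed by more than sampling noise (chi-square of 4.45 to 10.3 per degree of freedom). Tests on the counts were run in edgeR 4.0.16 (R 4.3.3). filterByExpr (minimum count 10, minimum total 15) kept 14193 genes with at least 99.6% of each library's counts. TMM scaling and 1 robust quasi-likelihood fit of the 4 group means over 16 libraries followed, with Benjamini-Hochberg adjustment over all genes tested within each contrast and a threshold of 0.05. The standard error is the log2 fold change divided by the square root of F. Correlations used log2 CPM with a prior count of 2, and the TPX2 permutation test log2(CPM + 1). In simulated counts for si47 against siNTC where 200 of 13942 genes were given a log2 change of 1, 64.0% of the 200 were recovered, with 6 false calls; smaller changes, as most here are, were not simulated.

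The 10 genes and the related list were chosen with earlier results of these data known. Named were all 10, TPX2, related genes past the threshold in the mean contrast or under 1 siRNA, 9 related genes whatever their values, and the 5 genes most like each of TOP2A, NCAPG and SMC3, of which 1 is not reported here. Deviations of same-numbered libraries from their group means had r above 0.1 for each of the 4 si45 and si47 pairs (0.120 to 0.242). No other 2 groups met this condition, which comes from the values, not the labels. Values of single genes with a replicate block are given for si47 against si45 only. For the other comparisons the block served only as an alternative. The results were also computed with DESeq2 1.42.0, limma-voom (limma 3.58.1), RLE factors, upper-quartile factors, 2 other count filters, only the groups compared, the block, an adjusted p under 0.01 and leaving out each library. Figures were drawn with matplotlib 3.10.9.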

Additional observations from a re-analysis of the deposited data

Results flagged for a closer look

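In 48 groups of 4 libraries (total counts and the CPM of TPX2 and the 10 genes), 1 library was far from the other 3 (gap to its nearest neighbour divided by the range of the 4), and chance gives 2.4 such groups in 48. It was si45 replicate 3, with TPX2 at 121 CPM against 79.1 to 84.9 CPM in the other si45 libraries. In the same library TOP2A (2953 CPM), NCAPH (103 CPM), SMC1A (509 CPM), SMC3 (621 CPM), SMC2 (229 CPM) and NCAPG (148 CPM) were the highest of the si45 group and ESPL1 (10.4 CPM) the lowest. The part of the weaker knockdown in these levels was not tested.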

How the results depend on the processing

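All log2 fold changes of the 10 genes kept their negative sign under every alternative and siRNA. The 7 lower genes in the mean contrast were 7 under every scaling, tool, filter and the block, 4 at an adjusted p under 0.01, and 5 to 7 without 1 library. For si47 the 7 were 5 to 8 under the alternatives and 5 to 7 without 1 library. The 3 under si46 were 5 in DESeq2, 6 with only the groups compared, 6 with the replicate block, 0 at 0.01, and 0 to 5 without 1 library (0 without si46 replicate 4 or siNTC replicate 1). The 0 under si45 were 1 in DESeq2, 3 with the block and 0 to 4 without 1 library. Between si47 and si45 the block gave 1, and leaving out 1 library 0 to 1; between the other siRNAs the number stayed 0. Of the 32 related genes, the counts of 6, 1, 2 and 7 (mean, si45, si46, si47) were 2, 0, 1 and 4 at 0.01, with 2 for si45 under the block and 1 for si46 in limma-voom, and ran from 2 to 6, 0 to 3, 1 to 3 and 5 to 8 without 1 library. Over all genes, the 1014, 190, 482 and 1382 called became 440, 96, 189 and 673 at 0.01 and 1817, 577, 1073 and 2198 with the block. si45 gave 292 in DESeq2 and 356 with no filter. Without 1 library the ranges were 629 to 1388, 97 to 406, 252 to 579 and 932 to 1664. The counts between siRNAs were 4 (si46 and si45), 24 (si47 and si45) and 7 (si47 and si46). They became 13, 153 and 45 in DESeq2, 14, 166 and 44 with no filter, 33, 398 and 108 with the block, 8 for the second at 0.01 and 4 for the third with only the groups compared, and 4 to 7, 10 to 147 and 2 to 23 without 1 library. The labels give only a shared number, and whether same-numbered libraries were paired is not known. Besides si45 with si47, their deviations from group means had r above 0.1 for 3 of 4 pairs of si45 with si46 (0.0716 to 0.247). The same held for 3 of 4 pairs of si46 with si47 (0.0854 to 0.209) and for 1 or 2 of 4 pairs of each siRNA with siNTC. The block counts are therefore an alternative and no evidence of a stronger effect. The causes were not tested. ESPL1, with 60 to 181 counts per library, has the widest standard errors of the 10.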

Other observations

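REC8, the kleisin of meiotic cohesin (chromosome 14, 24171853 to 24180257), held 1052 to 1692 counts per library, and its mean level was 220.5 CPM in siNTC, next to 434 ± 28.5 CPM (SD, n = 4) for the mitotic kleisin RAD21. With si45 it averaged 214 ± 7.55 CPM, with si46 212 ± 15.9 and with si47 210.4 ± 18.2, and it did not pass in the mean contrast (-0.05, SE 0.0680, edgeR adjusted p = 0.716). The other meiotic subunits were near or at 0: STAG3 had at most 9 counts in a library, SMC1B at most 15, and RAD21L1 had 0 in all 16. IPO4 overlaps REC8 on the opposite strand with 4165 counts over all libraries against 20688. REC8 was singled out after its values were seen.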
